A study of Homo sapiens with 6 samples.

Results

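The 47 genes described here encode glycoproteins and proteoglycans of the extracellular matrix other than collagens, compared between invasive, non-invasive and parental U87MG glioma cells. They were chosen by name: a gene entered through probe sets annotated with its symbol alone, and its probe set with the highest mean over the 6 arrays stood for it. Of the 47, 46 had such a probe set among 19775 genes, and LAMA3 was not analysed here. Of the 46, 43 reached the mean signal set for testing, which was a log2 value of 4.73 (the 40th percentile over probe sets). FBLN5, POSTN and GPC4 lay below it, at 4.34 to 4.62, 3.83 to 4.32 and 3.57 to 3.77 over the 6 arrays, and were not tested.

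Each group had 2 arrays of total RNA from cultured cells, which the labels call biological replicates. U87MGR is the highly invasive derivative (labelled U87MGR2 and U87MGR3), U87MGL the non-invasive derivative (U87MGL2 and U87MGL3), and U87MG the parental line, an established human glioblastoma line bought from a cell bank. Both derivatives came from 4 rounds of injection into the striatum of 6-week-old BALB/c nu/nu mice, after which dissociated tumour-bearing brain was put back into culture in serum-containing medium. The labels record no transplantation for the parental cells, so passage through mouse brain is shared by both derivatives and absent from U87MG. The labels do not say whether the numbers 2 and 3 mark sublines, and nothing says that cultures were derived independently, so the p-values measure the spread between these samples only. Cultures recovered from brain can carry host cells, and on arrays of whole cultures fewer cells of a type and less RNA per cell cannot be told apart.

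Markers used to check the label of glioma were bright for vimentin and nestin and dim for the astrocyte and stem cell genes. VIM had a log2 signal of 14.30 to 14.46 on the 6 arrays and NES 7.27 to 9.61, while GFAP lay at 5.21 to 5.45, SOX2 at 4.77 to 4.96 and S100B, at 3.18 to 3.51, below the level set for testing. Spiked-in control RNA parted the arrays across the groups: U87MGL replicates 1 and 2 with U87MGR replicate 1, U87MG replicate 1 with U87MGR replicate 2, and U87MG replicate 2 alone (arrays of a batch lay 0.882 to 1.41 apart, and arrays of different batches 5.56 to 8.83). U87MG replicate 2 also had a signal of 12.52 in an 18S ribosomal control probe set, against 6.00 to 7.98 on the other arrays. U87MGR replicate 2 had a 3′ minus 5′ difference of 0.24 for GAPDH, a measure of RNA quality, against 0.03 to 0.07 elsewhere. For actin it did not stand out: the difference was 0.25 there, -0.01 on U87MG replicate 1 and 0.22 to 0.39 on the others.

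The matrix glycoproteins and proteoglycans fill the space around cells and bind growth factors. Fibulins, fibrillins and latent TGF-beta binding proteins belong to elastic fibres and microfibrils, laminins and nidogens with perlecan and agrin build basement membranes, and small leucine-rich proteoglycans bind collagen fibrils. Syndecans and glypicans sit on the cell surface and carry heparan sulfate, which holds growth factors near their receptors. Normal brain tissue has little fibrillar matrix and much hyaluronan with its binding proteoglycans, versican among them, and gliomas are known to lay down tenascin, versican and other glycoproteins of their own.

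The first comparison set the invasive U87MGR cells against the non-invasive U87MGL cells, both recovered from mouse brain. No member passed the test over all 14513 genes (limma, Benjamini-Hochberg adjusted two-sided p under 0.05), where 0.0413% of all genes were called higher and 0.117% lower. Without adjustment (p under 0.05), limma gave 7 members above (16.3%) and 7 below (16.3%), against 3.91% and 4.94% of all genes. The arrays of the 2 groups did not overlap for 10 members higher and 11 lower (23.3% and 25.6%), and 23.3% of all genes lay on each side. The median log2 fold change was 0.01 for the 43 members and 0.00 for all genes tested.

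The members that differed by more than 1 on the log2 scale were OLFML3, SPP1, THBS2 and LAMA1, all higher in U87MGR, and MGP, lower; these 5 were singled out after their values were seen. OLFML3, a secreted olfactomedin-domain glycoprotein, had log2 signals of 7.58 and 6.67 on the U87MGR arrays and 6.03 and 5.82 on the U87MGL arrays, a difference of 1.20 (SE 0.44, limma adjusted p = 0.492). SPP1, osteopontin, an integrin-binding phosphoprotein, had 12.90 and 12.23 in U87MGR and 11.13 and 11.67 in U87MGL, a difference of 1.17 (SE 0.27, limma adjusted p = 0.24). MGP, the matrix Gla protein that restrains calcification, had 4.22 and 4.01 in U87MGR and 5.24 and 5.54 in U87MGL (-1.27, SE 0.37, limma adjusted p = 0.368). The groups did not overlap for any of the 3. MGP was tested only because of its signal in the other groups, since its U87MGR mean of 4.11 lay under the level set for testing; FBLN2, at 4.70 in U87MGR, was the other such member.

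THBS2, a thrombospondin that binds cell surface receptors and restrains vessel growth, had 9.91 and 9.80 in U87MGR and 8.73 and 8.81 in U87MGL. That difference of 1.09 (SE 0.17) had the smallest unadjusted limma p of any member, 0.00034, and an adjusted p of 0.115. LAMA1, the alpha chain of laminin-111, had 6.53 and 6.01 against 5.05 and 5.33 (1.08, SE 0.25, limma adjusted p = 0.235). LAMA4, a laminin alpha chain of vessel basement membranes, had 8.36 and 8.78 against 7.78 and 7.53 (0.92, SE 0.33, limma adjusted p = 0.482). In these too both U87MGR arrays lay above both U87MGL arrays.

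Among elastic fibre genes the largest differences between U87MGR and U87MGL lay in fibrillin-2 and in LTBP2, a latent TGF-beta binding protein family member of elastic fibres. FBN2 had 6.53 and 6.34 in U87MGR against 7.20 and 7.38 in U87MGL (-0.86, SE 0.24, limma adjusted p = 0.341), with no overlap. LTBP2 had 8.61 and 9.21 against 8.01 and 8.67 (0.58, SE 0.32, limma adjusted p = 0.652), with overlapping arrays. Among surface proteoglycans SDC2 had 9.10 and 8.46 in U87MGR and 9.82 and 9.27 in U87MGL (-0.77, SE 0.34, limma adjusted p = 0.592), and SDC4, a syndecan of focal adhesions, had 10.93 and 11.11 against 11.29 and 11.15 (-0.20, SE 0.18, limma adjusted p = 0.799). SPARC, a collagen-binding glycoprotein that loosens cell adhesion, had 11.64 and 10.93 against 12.28 and 12.24 (-0.98, SE 0.29, limma adjusted p = 0.373). Within the spike-in batch that holds U87MGR replicate 1 and both U87MGL arrays, the differences were 1.65 for OLFML3, 1.5 for SPP1, -1.17 for MGP, 1.14 for THBS2, 1.34 for LAMA1 and 0.70 for LAMA4. There they were -0.76 for FBN2, 0.28 for LTBP2, -0.45 for SDC2, -0.29 for SDC4 and -0.62 for SPARC. The differences of LTBP2, SDC2, SPARC, LAMA4, FBN2 and MGP were smaller in size within the batch. Those of OLFML3, SPP1, THBS2, LAMA1 and SDC4 were larger there.

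**Figure D1:**
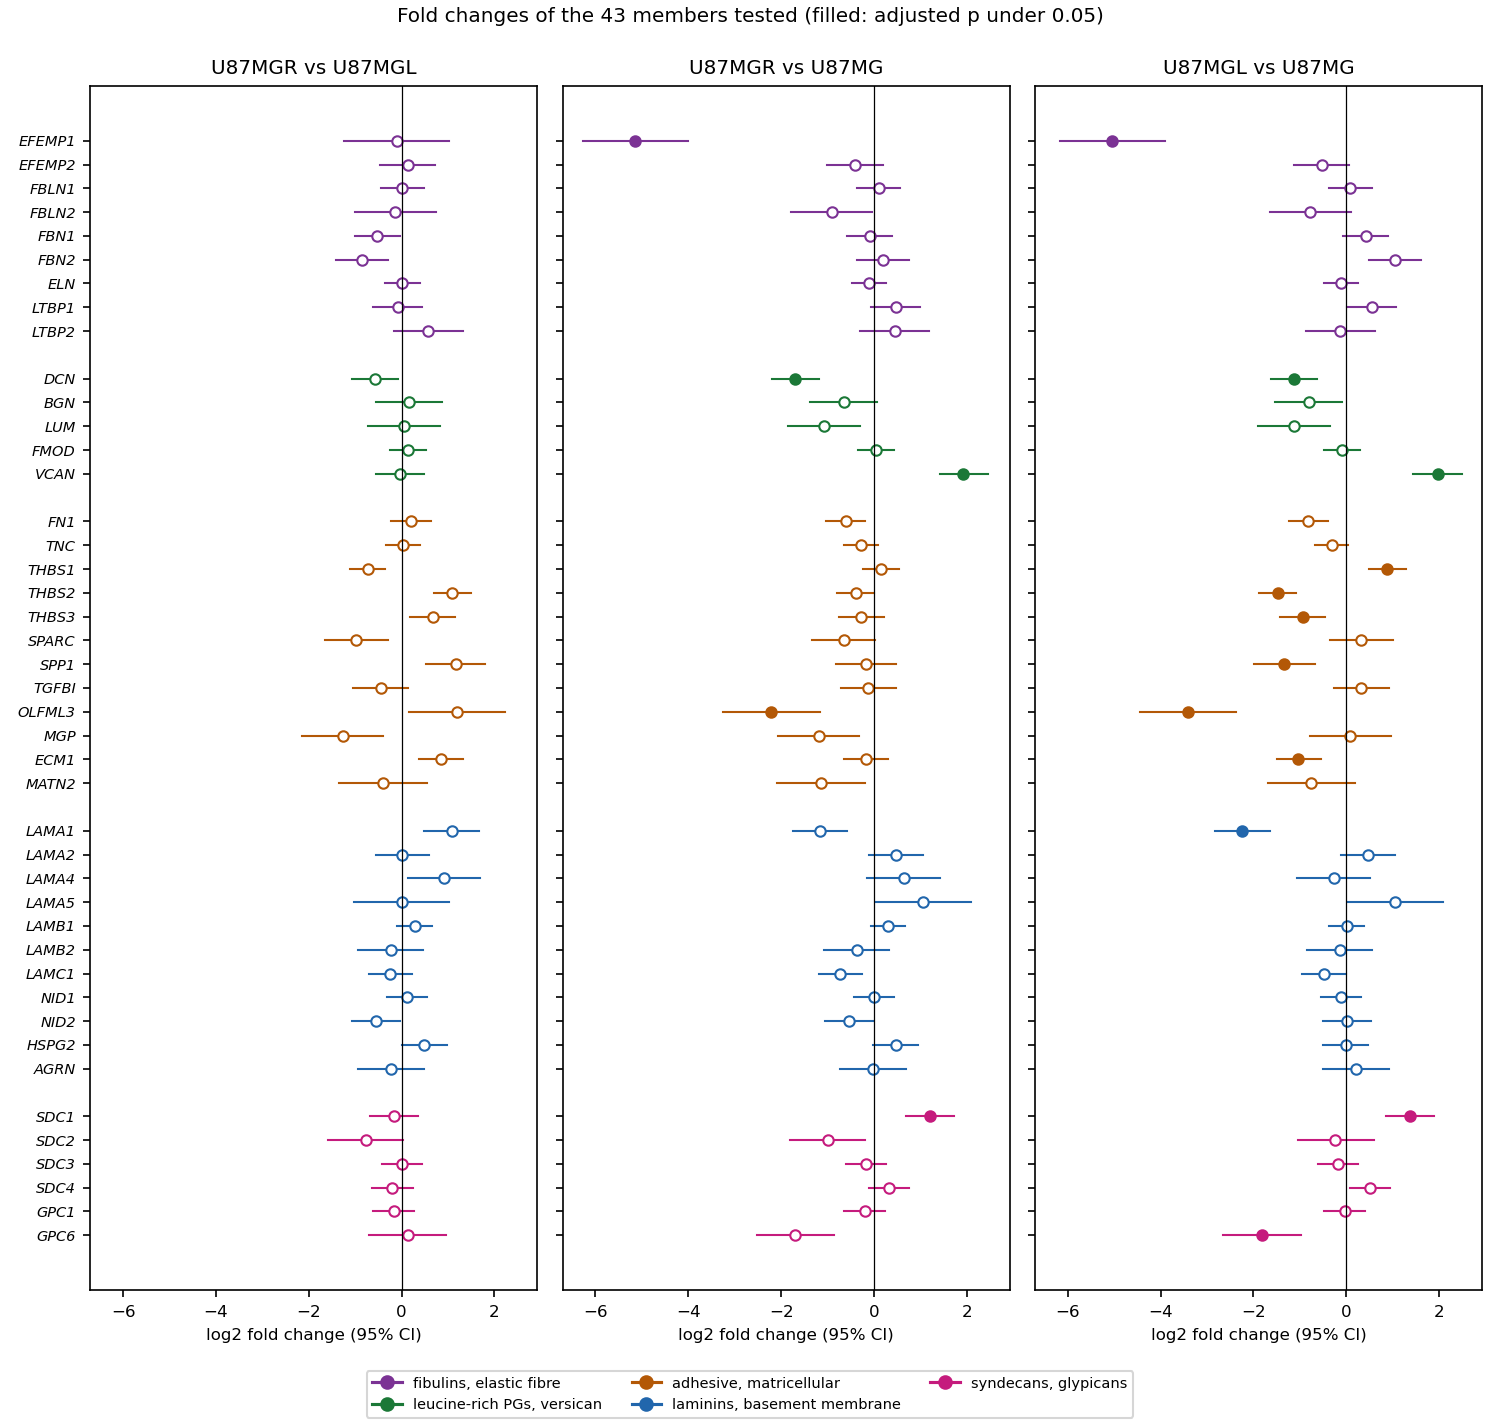
Log2 fold change (x axis, with its 95% confidence interval from limma) of each of the 43 members tested, in rows grouped by role and coloured by group, for U87MGR against U87MGL (left), for U87MGR against U87MG (middle) and for the comparison of U87MGL with U87MG (right). Filled points passed an adjusted p of 0.05: none in the first panel, 5 in the second and 12 in the third, with EFEMP1 farthest from 0 in both comparisons with U87MG.

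The second comparison set U87MGR against parental U87MG, the question being what separates invasive cells from their parents. Fibulin-3, decorin and OLFML3 fell and versican and syndecan-1 rose. These 5 of 43 members (2 higher, 4.65%, and 3 lower, 6.98%) passed in limma, where 1.86% of all genes were called higher and 1.44% lower. The median log2 fold change was -0.17 for the members and -0.01 for all genes tested. At an unadjusted p under 0.05 the members gave 3 higher and 13 lower, against 11% and 9.78% of all genes. U87MGR and U87MG arrays did not overlap for 8 members higher and 16 lower, against 24.2% of all genes on each side.

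The third comparison set U87MGL against U87MG in the same way. The same 5 genes passed there in the same directions, and 7 others passed besides: THBS1 rose, and THBS2, THBS3, SPP1, ECM1, LAMA1 and GPC6 fell. In all 3 of 43 members rose (6.98%) and 9 fell (20.9%), where 3.02% of all genes were called higher and 1.8% lower. Without adjustment (p under 0.05) there were 7 higher and 13 lower, against 13.2% and 10.1% of all genes, and arrays did not overlap for 11 higher and 16 lower, against 28.1% and 28.3%. The median log2 fold change was -0.13 for the members and -0.02 for all genes tested. The comparisons share arrays (both use the U87MG arrays, and U87MGR against U87MGL uses the other 4), so agreement between them is no independent support.

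**Figure D2:**
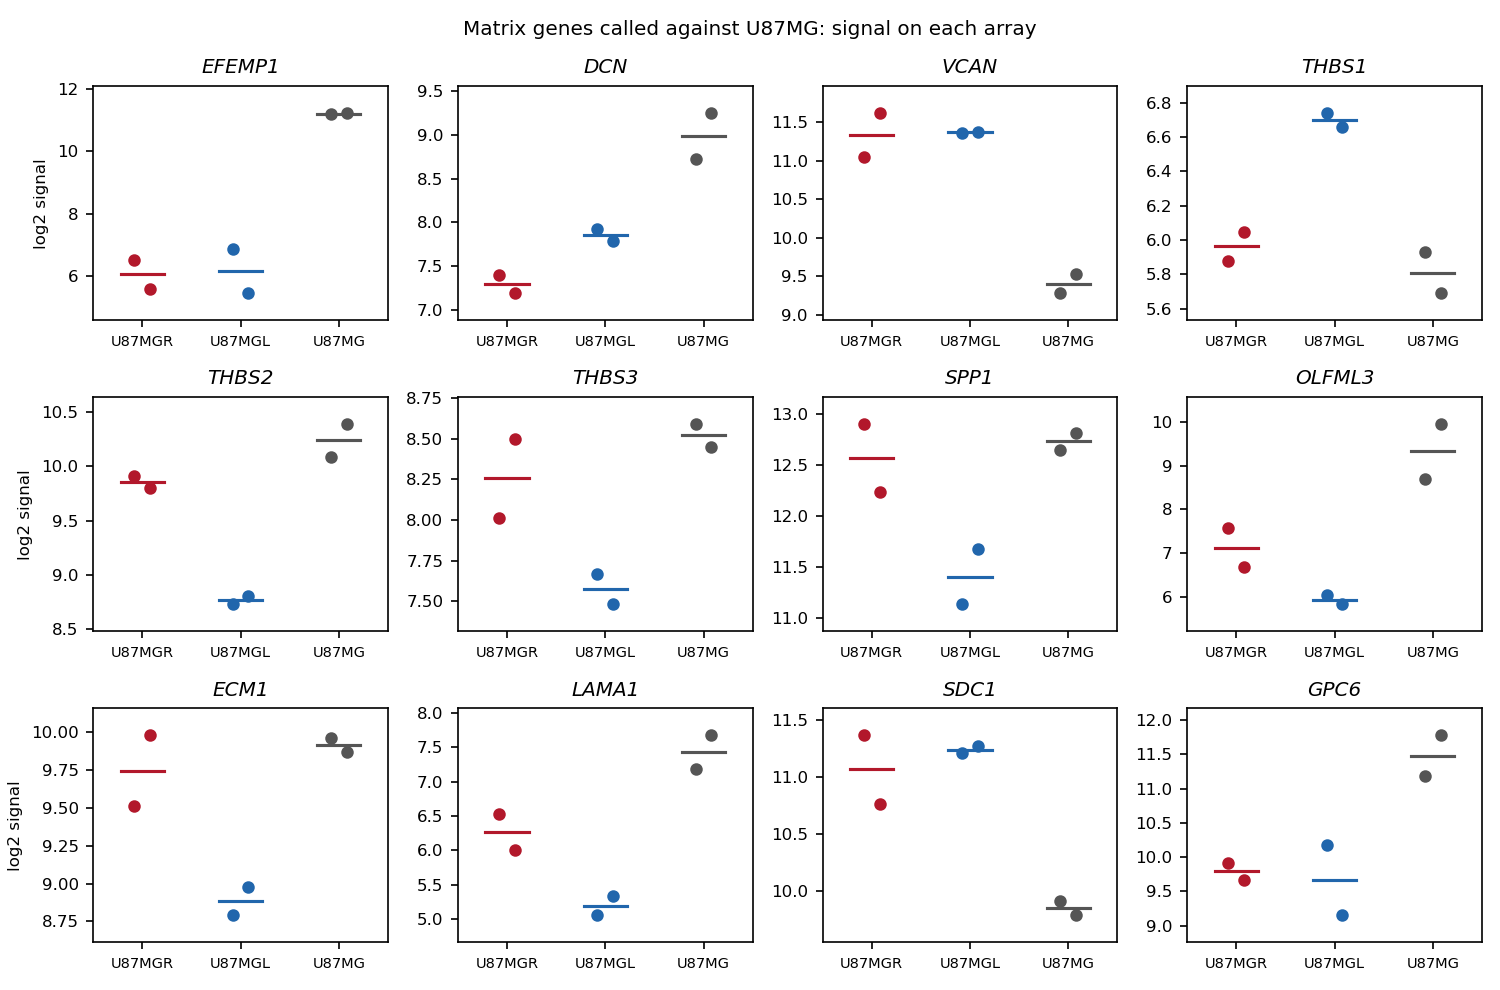
Log2 signal (y axis, scaled for each gene) on each of the 6 arrays for the 12 members called against U87MG in at least 1 derivative; points are arrays and short lines group means (n = 2). In EFEMP1 all 4 derivative arrays lie at 5.46 to 6.89, against 11.19 and 11.22 in U87MG, and in THBS2, SPP1 and ECM1 the U87MGL arrays lie below the other 4.

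The largest change was in EFEMP1, which encodes fibulin-3, a secreted glycoprotein of elastic fibre and basement membrane zones. Its log2 signal was 6.53 and 5.61 on the U87MGR arrays and 6.89 and 5.46 on the U87MGL arrays, against 11.19 and 11.22 on the U87MG arrays. The derivatives lay far below the parental line and overlapped each other. EFEMP1 was 35.2-fold lower in U87MGR than in U87MG (log2 fold change -5.14, SE 0.48, limma adjusted p = 0.0121) and 32.8-fold lower in U87MGL (-5.04, SE 0.48, limma adjusted p = 0.00814). Between the derivatives it differed by -0.10, with a 95% confidence interval of -1.23 to 1.02. Its next probe set, 201843_s_at, fell by 4.42 in U87MGR (limma adjusted p = 0.00175) and by 4.78 in U87MGL (limma adjusted p = 0.00104) in a fit over all probe sets.

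No other fibulin or elastic fibre gene among the members was called against U87MG. Outside the members, MFAP4 and EMILIN2, microfibril genes of a further list given below, were called lower in both derivatives. Fibulin-4 (EFEMP2), which is needed for elastic fibre assembly, had 9.03 and 9.28 in U87MGR, 9.05 and 9.0 in U87MGL and 9.92 and 9.19 in U87MG, differences from U87MG of -0.40 and -0.53 (limma adjusted p = 0.412 and 0.257). FBLN2 had 4.41 and 4.98 in U87MGR and 5.02 and 4.65 in U87MGL, against 5.06 and 6.16 in U87MG; its difference of -0.91 in U87MGR (limma adjusted p = 0.226) was -0.08 within the spike-in batch of U87MGR replicate 2 and U87MG replicate 1. FBN2 in U87MGL, given above, lay above the 6.57 and 5.90 of U87MG by 1.06 (SE 0.24, limma adjusted p = 0.0557). The other 5 tested genes of this group, FBLN1, FBN1, ELN, LTBP1 and LTBP2, differed from U87MG by -0.13 to 0.55 in either derivative.

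Decorin and versican, proteoglycans of different families, moved in opposite directions. DCN, decorin, a small leucine-rich proteoglycan that binds collagen and TGF-beta, had 7.40 and 7.19 in U87MGR, 7.93 and 7.79 in U87MGL and 8.72 and 9.25 in U87MG, with no overlap between any of the groups. Between the derivatives it differed by -0.57 (SE 0.21, limma adjusted p = 0.505), which did not pass. It was 3.23-fold lower in U87MGR than in U87MG (-1.69, SE 0.21, limma adjusted p = 0.0185) and 2.18-fold lower in U87MGL (-1.12, SE 0.21, limma adjusted p = 0.0355). VCAN, versican, a large chondroitin sulfate proteoglycan that binds hyaluronan, had 11.05 and 11.62 in U87MGR and 11.36 and 11.38 in U87MGL, against 9.28 and 9.53 in U87MG. It was 3.82-fold higher in U87MGR (1.93, SE 0.22, limma adjusted p = 0.0184) and 3.92-fold higher in U87MGL (1.97, SE 0.22, limma adjusted p = 0.0104), and the derivatives overlapped.

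The other small leucine-rich proteoglycans did not pass. LUM, lumican, a regulator of collagen fibril width, had 7.46 and 6.79 in U87MGR and 7.44 and 6.71 in U87MGL, against 7.93 and 8.47 in U87MG (differences of -1.07 and -1.13, limma adjusted p = 0.129 and 0.105). BGN, biglycan, decorin's close relative, had 5.14 and 5.23 in U87MGR and 5.07 and 4.97 in U87MGL, against 5.33 and 6.33 in U87MG (-0.65 and -0.81, limma adjusted p = 0.286 and 0.177). Both derivatives lay below both U87MG arrays in LUM and BGN. Within the spike-in batch of U87MGR replicate 2 and U87MG replicate 1, LUM differed by -1.14 and BGN by -0.10. For BGN most of the difference therefore came from U87MG replicate 2. Fibromodulin (FMOD) lay at 5.33 to 5.68 on all 6 arrays.

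Decorin and lumican are genes that fibroblasts express strongly, and some genes of a list of fibroblast and pericyte markers differed between the groups, in both directions. Of its 10 genes 9 were tested, with a median log2 fold change of -0.03 in U87MGR and 0.10 in U87MGL against U87MG. PDPN and PDGFRB were called lower in both derivatives (-2.19 and -1.36 in U87MGR, -1.76 and -0.97 in U87MGL), and THY1 was called higher in U87MGL (3.47). The genes called lower were 22.2% of the list in each derivative, against 1.44% and 1.8% of all genes. THY1 was 11.1% of the list, against 3.02% of all genes called higher in U87MGL. None of the others was called in limma: in U87MGR, COL1A1 and COL1A2, the brightest of the list, differed by -1.18 and -1.14, ACTA2 by 0.56, RGS5 by 0.58, COL3A1 by 0.70 and TAGLN by -0.03. The summed linear signal of the list, most of it from COL1A1 and COL1A2, was 7945 and 4724 in U87MGR, 12773 and 9082 in U87MGL and 13929 and 11033 in U87MG. At an unadjusted limma p under 0.05, 4 genes of the list lay lower in U87MGR than in U87MG and 1 higher. These were 44.4% and 11.1%, against 9.78% and 11% of all genes. In U87MGL against U87MG there were 2 lower and 1 higher (22.2% and 11.1%, against 10.1% and 13.2%). In U87MGR against U87MGL, THY1 was called lower (-3.48), 11.1% of the list against 0.117% of all genes. Of 4 markers tested for microglia, 6 for endothelium and 2 for oligodendrocytes none was called in any comparison by limma. The summed signals of all genes of each of these lists on the array, untested ones included, ran from 192 to 448. At an unadjusted p under 0.05, 1 microglia and 1 oligodendrocyte marker lay lower in U87MGL than in U87MG (25% and 50%, against 10.1% of all genes). The neuron list had higher summed signals, 1325 to 1759. Of its 6 tested markers MAP2 was called lower in U87MGL than in U87MG (-1.74), 16.7% of the list against 1.8% of all genes. Between the derivatives MAP2 (0.92) and SYT1 (0.75) were higher in U87MGR at an unadjusted limma p under 0.05 (33.3%, against 3.91% of all genes). The part of these markers' cells in the results was not tested. Host cells would be mouse cells, and how far these probe sets of human genes read mouse RNA was not tested either. The marker signals therefore do not show whether host cells were present.

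Of the adhesive and matricellular glycoproteins, OLFML3 fell in both derivatives and 5 others changed in U87MGL alone by the threshold. OLFML3 had 8.70 and 9.96 in U87MG, above all derivative arrays, and was 4.62-fold lower in U87MGR (-2.21, SE 0.44, limma adjusted p = 0.0484) and 10.6-fold lower in U87MGL (-3.41, SE 0.44, limma adjusted p = 0.0148). THBS2 had 10.09 and 10.39 in U87MG and was 2.78-fold lower in U87MGL (-1.47, SE 0.17, limma adjusted p = 0.011); its difference in U87MGR was -0.39. SPP1 had 12.65 and 12.81 in U87MG and was 2.52-fold lower in U87MGL (-1.33, SE 0.27, limma adjusted p = 0.044), where U87MGR differed by -0.17. For SPP1 the U87MGR and U87MG arrays overlapped.

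ECM1, a glycoprotein that binds perlecan and other matrix proteins, had 9.51 and 9.98 in U87MGR and 8.79 and 8.98 in U87MGL, against 9.96 and 9.87 in U87MG. It was 2.04-fold lower in U87MGL than in U87MG (-1.03, SE 0.20, limma adjusted p = 0.0383). THBS3, a thrombospondin of cartilage and other tissues, had 8.01 and 8.5 in U87MGR and 7.67 and 7.48 in U87MGL, against 8.59 and 8.45 in U87MG (1.92-fold lower in U87MGL, limma adjusted p = 0.0499). THBS1, a thrombospondin known to activate latent TGF-beta, was the member that rose: it had 5.88 and 6.05 in U87MGR and 6.74 and 6.66 in U87MGL, against 5.93 and 5.69 in U87MG (1.85-fold higher in U87MGL, 0.89, SE 0.16, limma adjusted p = 0.0334). In all of ECM1, THBS3 and THBS1 the U87MGL arrays stood apart from the other 4. A call in U87MGL and none in U87MGR does not show that the derivatives differ: the direct test of U87MGR against U87MGL gave 0.86 for ECM1 (adjusted p = 0.24), 0.67 for THBS3 (0.39) and -0.73 for THBS1 (0.212), and none passed.

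Other adhesive and matricellular members did not pass by their brightest probe sets. FN1, fibronectin, had 13.07 and 13.26 in U87MGR and 13.14 and 12.79 in U87MGL, against 13.81 and 13.75 in U87MG (-0.61 and -0.82, limma adjusted p = 0.114 and 0.0514). TNC, tenascin-C, lay at 11.88 to 12.30 on the 6 arrays and TGFBI at 13.47 to 14.22. MGP had 5.91 and 4.69 in U87MG, so that U87MGR lay below both arrays (-1.18, SE 0.37, limma adjusted p = 0.131). MATN2, matrilin-2, a filament-forming adaptor, differed by -1.14 in U87MGR (adjusted p = 0.169) and -0.75 in U87MGL.

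Among laminins and other basement membrane genes LAMA1 was the 1 called member of 11 tested. It had 7.19 and 7.68 in U87MG, above the U87MGL arrays and also above the U87MGR arrays given earlier. It was 4.74-fold lower in U87MGL (-2.24, SE 0.25, limma adjusted p = 0.0104), and differed by -1.16 in U87MGR (SE 0.25, limma adjusted p = 0.058). LAMA5, a laminin alpha chain of many basement membranes, had 9.51 and 10.05 in U87MGR and 9.90 and 9.65 in U87MGL, against 9.43 and 8.0 in U87MG (1.06 in each, limma adjusted p = 0.226 and 0.203), with no overlap. That difference rested on U87MG replicate 2: in each derivative it was 0.35 without that array and 1.77 without U87MG replicate 1, and in U87MGR it was 0.62 within the spike-in batch. The beta chain LAMB1 lay at 9.72 to 10.14 on all arrays, LAMB2 at 7.53 to 8.48, and the gamma chain LAMC1 differed by -0.72 and -0.48 (adjusted p = 0.102 and 0.21). The linkers NID1 and NID2 and the heparan sulfate proteoglycans HSPG2 (perlecan) and AGRN (agrin) differed from U87MG by -0.53 to 0.47, and none passed.

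On the cell surface syndecan-1 rose and glypican-6 fell. SDC1, a heparan sulfate proteoglycan of epithelial and tumour cells, had 11.37 and 10.77 in U87MGR and 11.21 and 11.27 in U87MGL, against 9.92 and 9.79 in U87MG. It was 2.32-fold higher in U87MGR (1.21, SE 0.22, limma adjusted p = 0.0384) and 2.61-fold higher in U87MGL (1.38, SE 0.22, limma adjusted p = 0.023). GPC6, a lipid-anchored heparan sulfate proteoglycan, had 9.91 and 9.67 in U87MGR and 10.17 and 9.15 in U87MGL, against 11.18 and 11.78 in U87MG. All derivative arrays lay below both U87MG arrays; GPC6 was 3.52-fold lower in U87MGL (-1.82, SE 0.35, limma adjusted p = 0.0377), and in U87MGR the difference of -1.69 (SE 0.35) had an adjusted p of 0.0529. SDC2 differed by -0.99 in U87MGR (adjusted p = 0.167), and SDC3, SDC4 and GPC1 differed by -0.20 to 0.52 in either derivative.

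Of the 5 genes called in both derivatives, VCAN, SDC1 and OLFML3 had a promoter sequence in the RefSeq table used (GRCh38.p14; 38 of the 47 members matched, with 44 windows). The windows run from 250 bases before to 50 after the transcription start, 5′ to 3′ on the gene's strand: VCAN at chr5:83471494-83471793 (plus strand), SDC1 at chr2:20225426-20225725 (minus strand, 1 of 2 starts listed) and OLFML3 at chr1:113979224-113979523 (plus strand). They are shown so that the upstream sequence of 2 genes that rose together can be read beside 1 that fell. Capitals mark matches on either strand to the motifs searched, which do not overlap one another in these windows. The letters GGGCGG stand for a GC box that binds Sp-family factors. A TATA box was searched as the letters TATAAA on its own. For the AP-1 element the letters searched were TGACTCA, and the CCAAT box is spelled by its name.
VCAN: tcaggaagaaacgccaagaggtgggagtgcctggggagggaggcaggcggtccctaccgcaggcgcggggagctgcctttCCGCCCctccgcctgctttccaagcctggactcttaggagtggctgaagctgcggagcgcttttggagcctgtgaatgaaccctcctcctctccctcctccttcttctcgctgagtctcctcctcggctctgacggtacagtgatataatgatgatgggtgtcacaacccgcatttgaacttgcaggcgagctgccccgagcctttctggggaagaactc
SDC1: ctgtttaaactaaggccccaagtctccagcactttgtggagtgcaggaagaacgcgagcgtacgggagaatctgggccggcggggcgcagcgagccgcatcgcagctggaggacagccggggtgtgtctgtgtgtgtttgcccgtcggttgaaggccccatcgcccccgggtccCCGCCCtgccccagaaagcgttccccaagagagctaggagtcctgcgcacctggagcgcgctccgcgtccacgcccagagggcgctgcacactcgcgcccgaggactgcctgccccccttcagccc
OLFML3: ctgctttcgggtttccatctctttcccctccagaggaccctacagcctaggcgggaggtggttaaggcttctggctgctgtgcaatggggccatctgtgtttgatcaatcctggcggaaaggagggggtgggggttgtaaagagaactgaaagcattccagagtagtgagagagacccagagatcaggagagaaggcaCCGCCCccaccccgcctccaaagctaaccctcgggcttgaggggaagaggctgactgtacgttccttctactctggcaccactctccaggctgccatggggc
Each window held 1 match, a GC box on the opposite strand, at position -170 from the start site in VCAN, -76 in SDC1 and -52 in OLFML3. GC boxes were found in 45% of all 35116 windows in the table and TATA boxes, AP-1 elements and CCAAT boxes in 11.5%, 4.95% and 34.6%. The GC content was 60.3% for VCAN, 67.7% for SDC1 and 58% for OLFML3, where the median of all windows was 58.7%. The match is shared by the genes that rose and the gene that fell.

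Most genes had more than 1 probe set, and those of a gene did not always give the same size. In a fit over 27364 probe sets, added after the data were seen, all 5 VCAN probe sets rose in both derivatives, by 1.71 to 2.44 in U87MGR and 1.97 to 2.51 in U87MGL (limma adjusted p at most 0.0343 and 0.0209). FN1 had 7 probe sets tested: the 4 brightest differed by -0.61 to -0.72 in U87MGR and -0.78 to -0.84 in U87MGL, while 214701_s_at fell by 3.15 (limma adjusted p = 0.0331) and 2.99 (limma adjusted p = 0.0213). On that probe set the signals were 8.37 and 7.51 in U87MGR and 8.31 and 7.89 in U87MGL, against 11.50 and 10.69 in U87MG. So the call for fibronectin rested on which probe set was read, and what part of the transcripts 214701_s_at reads was not analysed here.

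The 3 tested probe sets of TNC went different ways. On 237169_at TNC had 7.49 and 7.30 in U87MGR and 7.57 and 7.04 in U87MGL, against 9.07 and 8.79 in U87MG, and fell by 1.54 and 1.63 (limma adjusted p = 0.0418 and 0.0273), where the brightest probe set differed by -0.27 and -0.31. On 216005_at it differed by 1.93 in U87MGR (limma adjusted p = 0.286) and 0.96 in U87MGL (limma adjusted p = 0.559). THBS1 rose by 2.53 and 3.16 in U87MGL on 201109_s_at and 201110_s_at (limma adjusted p = 0.0196 and 0.0351), more than on the brightest one, 201108_s_at, which did not pass in this fit (adjusted p = 0.0522), and differed by 0.14 on 201107_s_at. On 201109_s_at THBS1 had 4.83 and 5.03 in U87MGR and 6.90 and 7.25 in U87MGL, against 4.95 and 4.13 in U87MG. SPARC, not called by its brightest probe set, fell in U87MGR on 212667_at (10.91 and 10.66 in U87MGR, against 12.10 and 11.86 in U87MG; -1.20, limma adjusted p = 0.0466). Between U87MGR and U87MGL none of the 88 member probe sets tested passed in limma.

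This fit also ended calls. In U87MGR, OLFML3 (adjusted p = 0.0687) and SDC1 (0.0582) no longer passed, and in U87MGL the same held for DCN (0.0528), THBS3 (0.0696), SPP1 (0.0615), ECM1 (0.0558) and GPC6 (0.0539). Averaging all probe sets of a gene, dim ones included, gave smaller differences for several members. DCN then differed by -0.84 in U87MGR (limma adjusted p = 0.0337) and by -0.57 in U87MGL (limma adjusted p = 0.0728), EFEMP1 by -3.38 and -3.54 (0.00834 and 0.00337). In U87MGL LAMA1 differed by -1.21 (0.0176), and SPP1 (-0.73, 0.291) and GPC6 (-1.39, 0.131) did not pass. Of the 7 DCN probe sets the 4 dimmest lay below the level set for testing and differed by -0.61 to 0.03 in U87MGR, while the 3 brighter ones differed by -1.58 to -1.89.

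**Figure D3:**
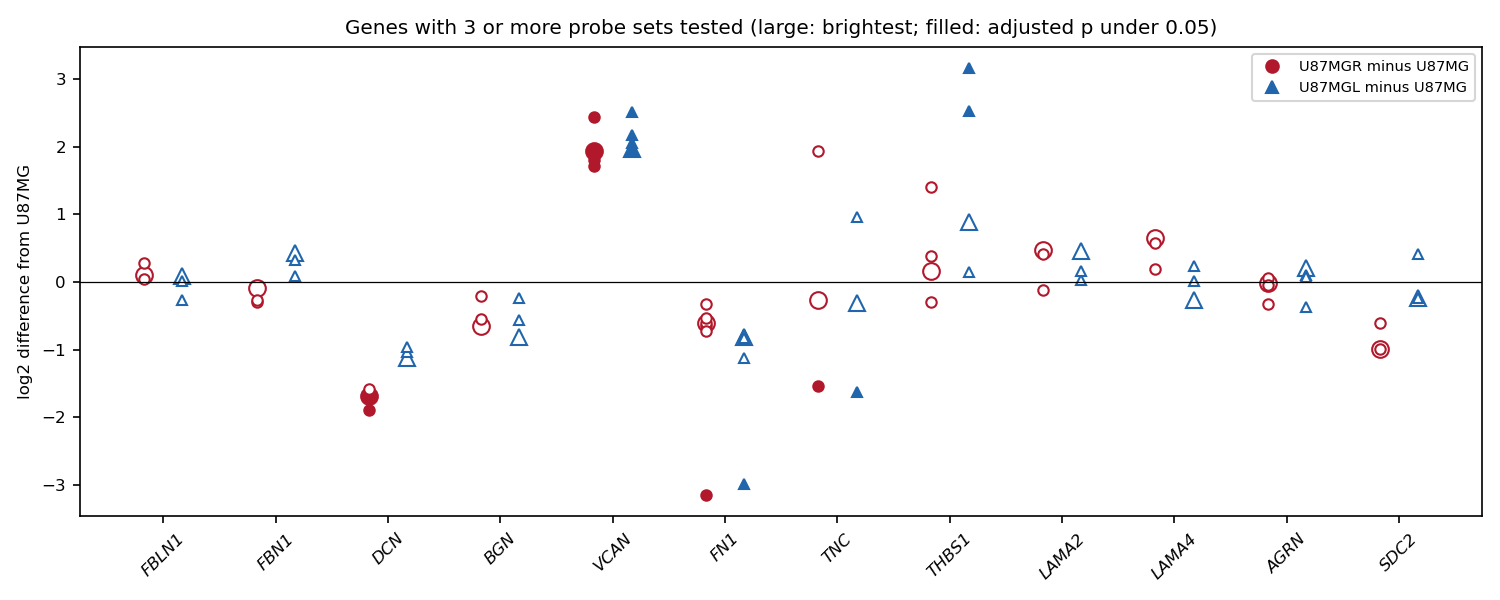
Log2 difference from U87MG (y axis) for each tested probe set of the 12 members with 3 or more probe sets tested, in U87MGR (circles) and U87MGL (triangles); the large symbol is the brightest probe set and filled symbols passed an adjusted p of 0.05 in the fit over all probe sets. The VCAN probe sets lie close together at 1.71 to 2.51, while 1 FN1 probe set lies near -3 and the others near -0.3 to -1.1, and those of THBS1 spread from 0.14 to 3.16 in U87MGL.

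Many of the calls ended when 1 array was left out or with spike-in batches as a block. These fits leave fewer residual degrees of freedom for every gene. Why single members lost their calls in them was not tested. Over the 15 alternatives run, EFEMP1, DCN and VCAN were called in U87MGR in 12 each, and OLFML3 and SDC1 in 6 each. The alternatives are not all separate. For U87MGR against U87MG, the fit to the 2 groups compared is the same as the fits without either U87MGL array. Likewise, 2 spike-in batches as a block are the same fit as leaving out U87MGR replicate 1. Without U87MGR replicate 1 or without U87MGR replicate 2, 1 array stood for U87MGR. EFEMP1 then differed from U87MG by -5.60 and -4.68 and VCAN by 2.22 and 1.65. Without U87MG replicate 2, EFEMP1, DCN and VCAN stayed past the threshold and MGP was added, and without either U87MGL array the same 3 stayed and GPC6 was added. Without U87MG replicate 1, the called members were EFEMP1, DCN, VCAN, OLFML3, BGN, FBLN2, GPC6, LAMA1 and LAMA5, so that U87MG rested on replicate 2, the array with the high 18S signal. With 3 spike-in batches as a block, U87MG replicate 2 dropped out and the comparison came down to U87MGR replicate 2 against U87MG replicate 1. Only the 2 U87MGL arrays gave its residual spread. Its differences are therefore those within that batch, given next, with MGP at -1.90. With 2 batches it came down to U87MGR replicate 2 against both U87MG arrays. Neither block is a separate test of the members. Within the batch of U87MGR replicate 2 and U87MG replicate 1 the differences were -5.58 for EFEMP1, -1.53 for DCN, 2.34 for VCAN, -2.03 for OLFML3, 0.84 for SDC1 and -1.51 for GPC6.

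In U87MGL, EFEMP1 was called in 13 of these 15 alternatives, VCAN, OLFML3 and LAMA1 in 12, THBS2 in 11, SDC1 in 10, GPC6 in 7, THBS1 and ECM1 in 6, DCN in 5, SPP1 in 4 and THBS3 in 3. Here the fit to the 2 groups compared is the same as the fits without either U87MGR array. In U87MGL against U87MG, EFEMP1 was the 1 member called without U87MGL replicate 2. EFEMP1, VCAN, OLFML3, LAMA1 and GPC6 were called without U87MGL replicate 1, and EFEMP1, VCAN, THBS2, OLFML3 and LAMA1 without U87MG replicate 2. Without U87MG replicate 1 DCN, THBS1, THBS2, SDC1 and GPC6 were called beside EFEMP1, VCAN, OLFML3 and LAMA1, and 5 members were added (BGN, FBLN2, FBN2, LAMA5 and LTBP1). Without either U87MGR array the called members were EFEMP1, VCAN, THBS2, OLFML3, LAMA1 and SDC1. No batch holds both groups, and with batch as a block, which reaches U87MG through the U87MGR arrays, none of the 12 passed in limma, and no gene on the whole array did. With no adjustment of p, 4 members were higher and 9 lower with 2 batches, against 4.47% and 4.04% of all genes, and 5 and 11 with 3 batches, against 7.66% and 7.68%. Every one of the 12 kept its sign there, but THBS3 shrank to -0.45 and -0.52, ECM1 to -0.55 and -0.60 and SDC1 to 0.77 and 0.71 with 2 and 3 batches, and SPP1 was -2.01 with 2.

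**Figure D4:**
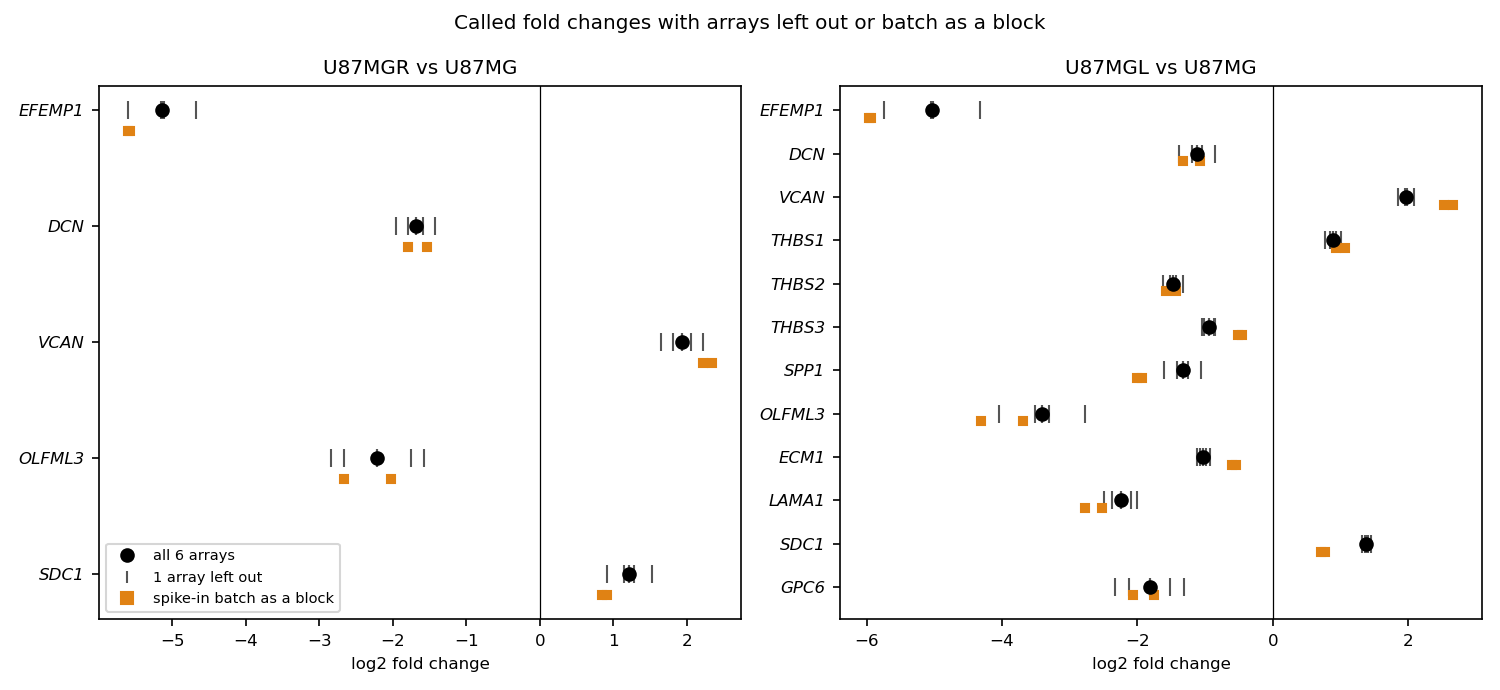
Log2 fold change (x axis) of each member called against U87MG, in U87MGR (left) and U87MGL (right): circles are the values from all 6 arrays, bars those with 1 array left out, and squares those with 2 or 3 spike-in batches as a block. No value crosses 0; EFEMP1 stays between -5.60 and -4.68 on the left, and THBS3, ECM1 and SDC1 lie nearer 0 with the block on the right.

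Genes that act with these proteins were counted from further lists. Of 27 tested relatives from the same families (of 45 listed), MFAP4, a microfibril-associated glycoprotein, and EMILIN2, an elastin microfibril interfacer, fell in both derivatives and none rose. These were 7.41% of the list in each, where 1.44% of all genes were called lower in U87MGR and 1.8% in U87MGL. MFAP4 had 6.86 and 6.74 in U87MGR and 7.47 and 7.0 in U87MGL, against 9.07 and 8.51 in U87MG (-1.98 and -1.55, limma adjusted p = 0.0185 and 0.0226). EMILIN2 had 5.64 and 5.09 in U87MGR and 5.14 and 5.43 in U87MGL, against 7.46 and 6.83 in U87MG (-1.78 and -1.86, limma adjusted p = 0.0281 and 0.0194). All derivative arrays lay below both U87MG arrays in both genes.

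Of the enzymes that build, sulfate or trim glycosaminoglycan chains, 37 of 42 on the array reached the mean signal set for testing, and limma called none of these in any comparison. Without adjustment (p under 0.05) 4 were higher and 5 lower in U87MGR than in U87MG (10.8% and 13.5%, against 11% and 9.78% of all genes). In U87MGL against U87MG there were 9 and 3 (24.3% and 8.11%, against 13.2% and 10.1%). In U87MGR against U87MGL there were 1 and 2 (2.7% and 5.41%, against 3.91% and 4.94%). The filter on the mean left out 2 sulfotransferases that were far brighter in U87MGL than in the other groups, named here after their values were seen. HS6ST2, which adds 6-O-sulfate to heparan sulfate, had 3.15 and 3.08 in U87MGR and 6.93 and 7.36 in U87MGL, against 3.24 and 2.98 in U87MG. In the fit without the filter it was called in U87MGR against U87MGL (-4.03, limma adjusted p = 0.000756) and in U87MGL against U87MG (4.04, limma adjusted p = 0.00224). CHST15, which sulfates chondroitin sulfate chains, had 3.59 and 3.65 in U87MGR and 6.26 and 6.31 in U87MGL, against 4.07 and 3.83 in U87MG. It was called in the same fit in U87MGR against U87MGL (-2.67, limma adjusted p = 0.00157) and in U87MGL against U87MG (2.34, limma adjusted p = 0.00283). Both were near the low end of signal in U87MGR and U87MG, so the size of their fold changes is uncertain. Of the 19775 genes in the fit without the filter, 0.162% were called lower in U87MGR than in U87MGL. In U87MGL against U87MG 2.23% were called higher.

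Of 19 matrix receptors ITGA2, the collagen-binding integrin alpha 2 chain, rose in U87MGL: it had 9.61 and 10.41 in U87MGL and 8.54 and 8.18 in U87MG (3.13-fold, limma adjusted p = 0.0265), and U87MGR differed by 1.30 (limma adjusted p = 0.0579). Of 13 matrix proteases and crosslinkers ADAMTS1, a protease that cleaves versican, rose in U87MGL, with 10.89 and 11.11 against 9.88 and 10.04 in U87MG (2.05-fold, limma adjusted p = 0.0283), and differed by 0.82 in U87MGR (limma adjusted p = 0.0611). The gene called in each list was 5.26% of the receptors and 7.69% of the proteases and crosslinkers, against 3.02% of all genes called higher in U87MGL. Of the receptors left out by the filter ITGA6, an integrin chain that binds laminins, was called in U87MGL against U87MG in the fit without it (1.11, limma adjusted p = 0.0375). In U87MGR against U87MGL no tested gene of the 4 lists was called in limma. Without adjustment 0 to 1 were higher and 0 to 2 lower a list, against 3.91% and 4.94% of all genes. Without the filter HS6ST2 and CHST15 were the called ones among those it had left out.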

How the data were processed

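RNA of 6 single-colour oligonucleotide arrays (54675 probe sets) was analysed from log2 signals as deposited by the authors; the sources used here do not give their normalization, and array medians of 5.29 to 5.35 lie close together. Nothing further was normalized. No depth applies: the number of arrays limits precision (median SE 0.19). Probe sets were paired with genes by 1 symbol (41097; 1801 had several, 11777 none), with symbols updated by gene number from RefSeq (GRCh38.p14, 41043 matched). One limma model (3.58.1, R 4.3.3; 3 residual and 4.05 prior degrees of freedom) gave a mean per group and 3 contrasts, with Benjamini-Hochberg adjustment over 14513 genes; it was tested on simulated data. Given array by array were members called anywhere and the 2 of each role with the largest difference per contrast; some others are added for context. Of other lists, up to 2 called genes each way were named. Batches came from clustering 42 spike-in probe sets. The members and lists were chosen with earlier results of these data known.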

Additional observations from a re-analysis of the deposited data

How the results depend on the processing

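No fold change of a called member changed sign under any alternative that was run. Among all 43 members tested, uncalled ones did: 17 in U87MGR against U87MGL, 12 in U87MGR against U87MG and 17 in U87MGL against U87MG (EFEMP1 between the derivatives and SPP1 in U87MGR are examples). No member was called in U87MGR against U87MGL under any of them. The counts of higher and lower members moved as follows. Fits without 1 array or with a spike-in block can leave 1 array of a group to set the difference, so their calls are no separate support. In U87MGR against U87MG (2 and 3) leaving out 1 array gave 0 to 2 and 0 to 7 (of all genes, 0.00689% to 3.35% and 0% to 2.69% were called), 2 spike-in batches as a block gave 0 and 0 (0.0345% and 0.0413%), 3 batches gave 1 higher, the fit to the 2 groups compared gave 1 higher, the stricter filter (60th percentile) gave 5 lower, and testing every probe set gave 1 and 5. In U87MGL against U87MG (3 and 9) leaving out 1 array gave 0 to 6 and 1 to 8 (0.117% to 6.08% and 0.138% to 4.6% of all genes), testing every probe set gave 3 and 6, both blocks gave 0 and 0, and the fit to the 2 groups compared gave 4 lower. Of all genes, the fit to the 2 groups compared called 0.765% higher in U87MGR against U87MG and 0.627% lower in U87MGL against U87MG. The stricter filter called 1.91% of genes lower in U87MGR against U87MG. Of 27364 probe sets tested, 174 were called higher and 164 lower in U87MGR, and 466 and 245 in U87MGL. Quantile normalization gave the same members in both comparisons. Equally numbered arrays share only a number: after group means were removed, their correlations across genes were -0.09, 0.11 and 0.01 for the 3 pairs of groups. With the replicate block the counts were 2 and 3 in U87MGR against U87MG, where 1.3% and 1.21% of all genes were called. They were 2 and 6 in U87MGL against U87MG (2.55% and 1.6% of all genes) and 0 and 0 in U87MGR against U87MGL. In that last comparison the unadjusted limma counts were 8 and 7, against 3.79% and 5.57% of all genes. That block ended the calls of OLFML3 in U87MGR (adjusted p = 0.0673), with SDC2 added, and of DCN (0.052), THBS1 (0.0506), THBS3 (0.0706) and SPP1 (0.0633) in U87MGL. With 2 arrays a group, differences of dim members near the 4.73 level are the least certain.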

Other observations

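Some probe sets of members separated the arrays of 1 group. On TNC probe set 216005_at U87MGR replicate 2 had a log2 signal of 8.55, against 5.50 on U87MGR replicate 1, 5.94 and 6.17 in U87MGL and 4.69 and 5.49 in U87MG. On NID1 probe set 202007_at U87MGL replicate 2 had 5.50, against 4.02 on U87MGL replicate 1, 3.56 and 3.17 in U87MGR and 3.48 in each U87MG array. Over the tested members, the difference between the arrays of a group had an SD of 0.468 (U87MGR), 0.397 (U87MGL) and 0.592 (U87MG), where over all genes tested it was 0.345 (U87MGR), 0.282 (U87MGL) and 0.451 (U87MG).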
